A study of Mus musculus with 44 samples.

Results

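CpG-sparse tiles are 1-kb stretches of the mouse autosomes from which reduced representation bisulfite sequencing (RRBS) returned only a few cytosines. Each autosome was divided into consecutive tiles of 1000 bp, and a tile was a member when it held 3 to 5 measured cytosines in every one of the 9 deposited tables of percent methylation. Of 192115 autosomal tiles with a measured cytosine in any table, 20675 met this rule. Denser tiles served as the comparison: 19463 held 6 to 19 cytosines in every table and 12311 held 20 or more. No methylation value entered the choice, and the level of a tile in a library is the mean percent methylation of its cytosines.

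The series holds 44 libraries in 12 groups, taken from the hippocampus, the frontal cortex and whole blood of wild type C57BL/6J mice, adult males aged 8 to 12 weeks. Every animal carried the same Gulf War Illness model: corticosterone (CORT) at 200 mg/L in drinking water with 0.6% ethanol for 7 days, a single dose of 4 mg/kg of the nerve agent surrogate diisopropyl fluorophosphate (DFP) on day 8, and further CORT every other week up to 5 weeks. The mice then received saline or 0.5 mg/kg lipopolysaccharide (LPS) under the skin, and LPS tissue was taken at 6, 12 and 24 h, whereas the saline groups of all tissues were taken at 6 h only. No group without CORT and DFP was part of the design, so each comparison is LPS against saline on top of that exposure. Blood had 4 saline libraries and 4, 3 and 3 LPS libraries at 6, 12 and 24 h, hippocampus had 3 and then 4, 3 and 4, and cortex had 4 in each group. The labels do not say whether replicates came from separate animals or which tissues share an animal, so the tests measure the spread between libraries, part of which may be technical. The tables give percentages without read counts, so the read depth behind each value is unknown and no binomial interval can be given.

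In mammals DNA methylation sits mostly on the cytosine of CpG pairs, where maintenance methyltransferases copy it at each division and TET enzymes begin its removal. Long CpG-rich stretches, the CpG islands at many gene starts, stay largely unmethylated, whereas isolated CpGs elsewhere are mostly methylated except at enhancers and promoters that are active in a given cell type. RRBS digests DNA with MspI, which cuts at CCGG, and sequences the ends of short fragments, so most reads come from islands, and a tile with few cytosines typically holds a lone short fragment outside them.

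The name describes what was measured, since a tile can contain more CpGs than the few that RRBS read. In the promoter windows used here, 300 bases long and reaching from 250 bases before to 50 bases after a RefSeq start site, the 226 windows that held at least 2 cytosines of a sparse tile had a median of 13 CG pairs, close to the median of 14 over all 20085 autosomal windows of protein-coding genes. Windows whose start site lay in a sparse tile (319 windows) had a median of 7, against 15 for a tile of 6 to 19 cytosines (1741) and 26 for a tile of 20 or more (6792). The MspI site CCGG occurred in every one of the 226 windows and in 63.5% of all windows. TATAAA, the core of the TATA box, searched on both strands, occurred in 9.29% of the 226 and in 12.7% of all windows, with no overlap possible between the searched motifs other than CG within CCGG.

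Promoter windows of 6 genes show what such a tile looks like and how few positions carry its value. They were chosen after the values had been seen, as the 3 largest differences in each direction among 53 windows whose tile changed in blood after LPS with no overlap between groups. Each is printed 5′ to 3′ on the strand of the gene in build GRCm38.p6 from RefSeq, in lower case with the measured CpGs in capitals. Parvg lies at chr15:84324470-84324769 (plus strand), Tmem178b at chr6:40110003-40110302 (plus), Anxa8 at chr14:34085729-34086028 (plus), Fam47e at chr5:92554798-92555097 (plus), Glrp1 at chr1:88510017-88510316 (minus) and Unc13c at chr9:73968988-73969287 (minus).
Parvg: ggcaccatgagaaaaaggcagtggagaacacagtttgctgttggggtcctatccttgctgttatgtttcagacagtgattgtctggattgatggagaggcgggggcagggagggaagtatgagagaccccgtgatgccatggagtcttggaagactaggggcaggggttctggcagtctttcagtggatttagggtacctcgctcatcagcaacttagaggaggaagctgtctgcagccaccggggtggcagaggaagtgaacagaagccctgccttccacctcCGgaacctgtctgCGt
Tmem178b: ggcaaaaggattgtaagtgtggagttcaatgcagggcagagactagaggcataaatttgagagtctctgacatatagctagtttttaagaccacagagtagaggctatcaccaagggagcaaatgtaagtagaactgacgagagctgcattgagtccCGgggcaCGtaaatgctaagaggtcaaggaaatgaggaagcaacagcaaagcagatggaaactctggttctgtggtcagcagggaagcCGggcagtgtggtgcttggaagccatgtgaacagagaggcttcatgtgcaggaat
Anxa8: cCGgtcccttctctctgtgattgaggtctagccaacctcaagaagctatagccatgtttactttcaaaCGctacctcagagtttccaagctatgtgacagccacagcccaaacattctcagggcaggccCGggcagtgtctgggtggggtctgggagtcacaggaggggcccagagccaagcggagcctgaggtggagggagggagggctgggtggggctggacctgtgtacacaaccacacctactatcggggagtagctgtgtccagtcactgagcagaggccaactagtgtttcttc
Fam47e: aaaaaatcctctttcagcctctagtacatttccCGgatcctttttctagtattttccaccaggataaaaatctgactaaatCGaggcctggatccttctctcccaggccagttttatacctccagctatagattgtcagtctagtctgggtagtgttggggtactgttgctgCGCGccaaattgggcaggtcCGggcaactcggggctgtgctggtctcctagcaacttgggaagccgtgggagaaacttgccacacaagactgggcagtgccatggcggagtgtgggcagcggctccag
Glrp1: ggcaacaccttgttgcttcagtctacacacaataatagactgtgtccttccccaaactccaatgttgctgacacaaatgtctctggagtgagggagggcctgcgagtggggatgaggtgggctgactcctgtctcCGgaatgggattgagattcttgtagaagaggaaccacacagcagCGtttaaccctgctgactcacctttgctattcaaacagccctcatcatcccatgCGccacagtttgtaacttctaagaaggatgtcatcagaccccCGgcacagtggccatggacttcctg
Unc13c: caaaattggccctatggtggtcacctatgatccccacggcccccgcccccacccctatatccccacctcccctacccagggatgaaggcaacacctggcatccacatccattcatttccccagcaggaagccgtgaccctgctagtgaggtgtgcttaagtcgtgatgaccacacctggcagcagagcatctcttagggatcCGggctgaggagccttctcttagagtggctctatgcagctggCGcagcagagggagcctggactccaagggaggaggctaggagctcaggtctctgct
The capitals mark 2 CpGs of the 6 in the Parvg window, 3 of 4 in Tmem178b, 3 of 5 in Anxa8, 5 of 9 in Fam47e, 4 of 5 in Glrp1 and 2 of 6 in Unc13c.

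The cytosines of a sparse tile lay close together. From the first to the last the median distance was 109 bp (quartiles 75 and 144 bp), and 96.1% of tiles spanned under 220 bp, short enough for a single RRBS fragment. Since both strands of a CpG can be listed, the 3 to 5 cytosines stood for 2 distinct CpGs in 3.8% of tiles, 3 in 50.7%, 4 in 32.0% and 5 in 13.5%. The strands gave nearly the same value where both were read: over 7487 such CpGs the median absolute difference in saline blood was 2.77 points (Pearson r = 0.981, across CpGs that share libraries). The cytosines of a tile are therefore not independent measurements of it.

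Sparse tiles lay away from gene starts. Inside the span of a protein-coding gene were 48.7% of them, against 60.3% of tiles with 6 to 19 cytosines and 91.4% of tiles with 20 or more, and 49.1% were farther than 1 kb from any gene. A listed start site within 1500 bp was found for 5.3% of the 19981 sparse tiles on chromosomes with listed start sites, against 18.1% and 67.5% in the denser classes, and the median distance was 45597, 24060 and 526 bp. The tiles inside or within 1 kb of a gene belonged to 6068 genes.

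Before any comparison, the libraries labelled saline blood have to be set apart. Across the 20675 sparse tiles the group mean of saline blood correlated with LPS blood at 6 h (Pearson r = 0.839) about as strongly as with saline hippocampus (0.829) and saline cortex (0.843), while LPS blood at 12 and 24 h correlated at 0.994 with each other. LPS blood at 6 h correlated less with saline hippocampus (0.719) and saline cortex (0.748); all of these share the same tiles and describe these libraries only. In 4785 sparse tiles LPS blood at 6 h and saline hippocampus differed by more than 20 points, and in 78.9% of them saline blood lay between the other two. With cortex in place of hippocampus the share was 76.4% of 4353 tiles. The position of saline blood varied widely. Over the 4785 tiles its median was 56.2% of the way from hippocampus to LPS blood (quartiles 24.3 and 85.2%). The tiles were picked for their gap, and no other group was placed in this way for reference. Over all tiles of marker genes, the myeloid regulator Spi1 had 69.0% ± 3.2 (SD, n = 4) in saline blood and 15.5% ± 5.3 (SD, n = 4) in LPS blood at 6 h, against 50.9% ± 5.6 (SD, n = 3) in saline hippocampus. The astrocyte gene Gfap was methylated in saline and LPS blood alike (87.7% and 85.4%) and was at 46.0% in saline hippocampus. At both genes saline blood was above LPS blood and hippocampus rather than between them. Of the 9 leukocyte genes checked, all had a lower mean in LPS blood at 6 h than in saline blood, and with cortex as the other end saline blood lay between at 6 and above both at 3. Of the 8 neuronal and glial genes saline blood lay between LPS blood and cortex at 5. The part of these positions in the comparisons with saline blood was not tested.

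The mean level of the sparse tiles was higher in blood after LPS and lower in hippocampus at 6 and 24 h, and the groups overlapped in cortex. In saline blood it was 70.53% ± 0.0854 (SD, n = 4), with all libraries between 70.41 and 70.62%. In LPS blood it was 74.8% ± 1.48 (SD, n = 4) at 6 h, 76.23% ± 0.91 (SD, n = 3) at 12 h and 75.33% ± 2.1 (SD, n = 3) at 24 h. Every LPS blood library was above every saline one, the lowest being 72.86%. Whole blood is a mixture of cells, so a change in the share of its cell types and a change of methylation within cells cannot be told apart in these libraries.

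Saline hippocampus had 69.74% ± 0.406 (SD, n = 3; 69.27 to 69.98%) and LPS hippocampus 66.64% ± 1.29 (SD, n = 4; 64.84 to 67.6%) at 6 h, 68.3% ± 3.27 (SD, n = 3; 64.6 to 70.79%) at 12 h and 67.84% ± 1.3 (SD, n = 4; 65.99 to 68.98%) at 24 h. The groups did not overlap at 6 and 24 h and overlapped at 12 h, where the difference became 0.409 points without LPS 12 h replicate 2. In cortex the saline libraries averaged 70.67% ± 1.58 (SD, n = 4) and the LPS groups 70.65%, 70.16% and 71.2%, all overlapping with saline. The SD among the 4 saline blood libraries was smaller than in any other group, which is visible in the plot of the mean level by library.

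**Figure D1:**
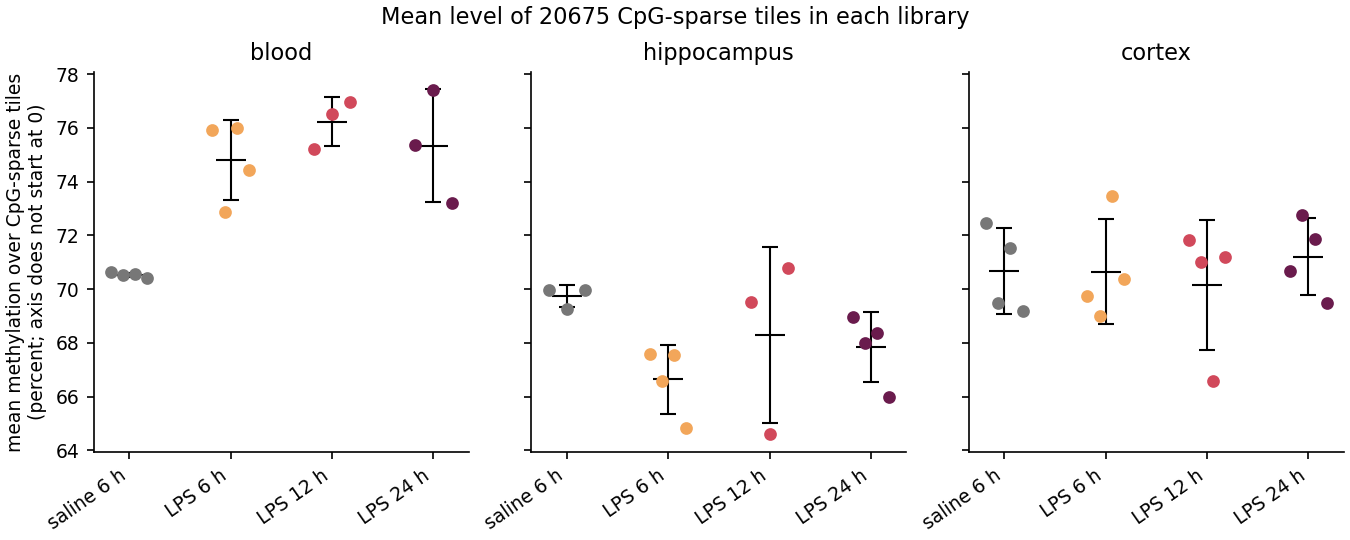
Mean percent methylation over the 20675 CpG-sparse tiles (vertical axis, which does not start at 0) in each library, by tissue and group; points are libraries, bars the group mean and 1 SD. The saline blood libraries lie between 70.41 and 70.62% and all LPS blood libraries above them; in hippocampus all LPS libraries at 6 and 24 h lie below the saline libraries.

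The level of a tile fell as more of its cytosines were measured. Tiles with 3 cytosines in every table averaged 70.52% in saline blood, tiles with 4 averaged 68.47% and tiles with 5 averaged 63.25%. The trend ran on outside the class, from 74.18% for tiles with 2 cytosines to 60.56% for tiles with 6, and the denser classes averaged 52.99% (6 to 19) and 4.042% (20 or more). Distance to the nearest tile with 20 or more cytosines gave a similar order within the sparse class. The 725 sparse tiles next to such a tile averaged 19.54% in saline blood, the 584 that were 2 to 3 tiles away 56.8%, and the 11799 more than 50 tiles away 75.44%.

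Most sparse tiles were either highly methylated or in the middle range. In saline blood 46.8% of them lay between 80 and 95% and another 6.53% above 95%, while 4.58% lay under 5%. The middle of the scale thinned out after LPS. At 6 h the share of tiles between 20 and 40% was 3.83% instead of 7.4%, the share between 40 and 60% was 5.12% instead of 10.2%, and the share between 80 and 95% was 62.4%. In hippocampus the share between 20 and 40% went from 8.75% with saline to 10.2% at 6 h after LPS, and in cortex from 7.69 to 7.85%.

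**Figure D2:**
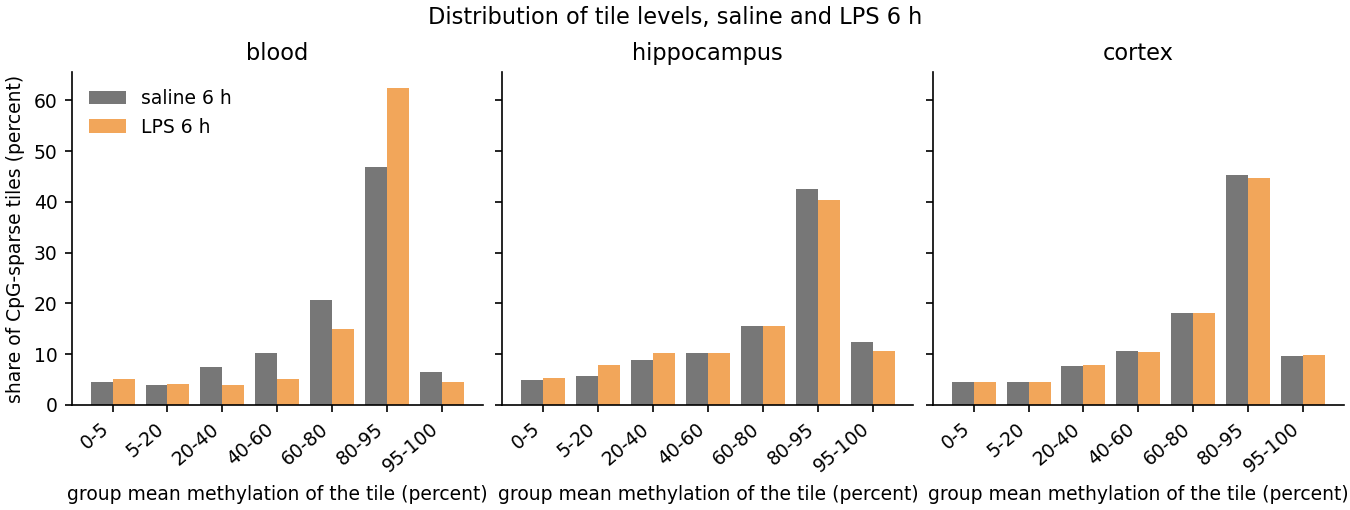
Share of the CpG-sparse tiles (percent, vertical axis) by group mean methylation (horizontal axis, bins in percent) for saline and LPS 6 h in each tissue. In blood the bin from 80 to 95% grows from 46.8 to 62.4% of tiles while the bins from 20 to 60% shrink.

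Blood after LPS differed from saline blood in a large share of sparse tiles. A tile was called when limma gave a Benjamini-Hochberg adjusted p under 0.05 over all tiles of the table and the groups differed by at least 5 points, and it was tested when its mean level was between 5 and 95%. At 6 h 18885 sparse tiles were tested, of which 5819 were called higher and 1997 lower after LPS. That is 41.4% of them, the same as the 41.4% called among all 74713 tiles tested (29.6% higher and 11.8% lower), so the share was that of the background. With each library centred on its own mean the calls were 4694 higher and 4702 lower, and the share of calls that were higher went from 74.4% to 50%. Among all 74713 tiles centring gave 17467 higher and 18959 lower, so the upward lean was lost there too. The median difference over the tested sparse tiles was 1.34 points (1.27 over all tiles), and -1.71 points after centring. Directions below are those of the deposited values, not adjusted for that shift, except where centring is named. No sparse tile called in one direction was called in the other after centring.

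At 12 h 6657 tiles were higher and 1688 lower of 18529 tested, beside 44.5% called among all tiles (34.6% higher and 9.95% lower), and at 24 h 5993 were higher and 1878 lower of 18691, beside 42.5% (31.1% higher and 11.3% lower). Centring changed the split to 4859 and 4157 at 12 h (79.8% higher becoming 53.9%) and to 4765 and 4283 at 24 h (76.1% becoming 52.7%). Among all tiles the centred calls were 15248 higher and 14571 lower of 61847 at 12 h. At 24 h they were 17224 and 17173 of 71782. The 3 comparisons use the same 4 saline libraries and are not independent of each other. Among 18220 sparse tiles tested at all times, 5114 were called higher at every time (28.1%), 1384 lower at every time (7.6%), 4 in opposite directions and 8597 at none (47.2%). Over all 58830 tiles tested at all times the shares were 27.6, 8.51 and 46.7%, so these patterns were near the background.

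No sparse tile was called between LPS blood at 24 h and at 6 h by limma (972 of 18819 had an unadjusted p under 0.05, where 4.82% of all tiles did), and the median difference was 0.673 points. The difference itself does not use the saline libraries. They were part of the joint fit, though, and entered its variance and the limit on the mean level. Hippocampus (962 of 17362 with an unadjusted p under 0.05, beside 4.95% of all tiles) and cortex (510 of 17759, beside 3.02%) had no calls either.

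Changes in blood at 6 h were large where they were called. The median size was 18 points for higher tiles and 14.2 points for lower tiles. A difference of at least 25 points was found in 1988 higher and 587 lower tiles, and one of at least 50 points in 257 and 68. All cytosines of the tile moved in the same direction in 86.2% of the higher and 86.7% of the lower tiles, and the libraries of the groups did not overlap in 88.5% and 84.5%. The call itself favours large differences without overlap. Sizes and overlap were counted in sparse tiles only, so they cannot be read as particular to that class.

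How often a tile was called went along with its level in saline blood. Of sparse tiles between 20 and 50% in saline blood 86.0% were called, with a median difference of 27.3 points, against 62.2% of tiles under 20%, 65.3% of tiles from 50 to 80% and 15.9% of tiles above 80%. Over all tiles the shares were 48.7, 83.3, 68.0 and 18.1% in the same order of levels from low to high. Under 20% the share fell with the number of cytosines, from 62.2% to 48.4% for 6 to 19 cytosines and 31.3% for 20 or more. The limit on the mean level used the LPS libraries as well as the saline ones. A tile below its lower end in saline blood was therefore tested only where LPS blood was higher. Some low tiles that fell further after LPS were left out. The shares under 20%, and likewise those above 80%, thus depend partly on this limit. The difference between the classes was not tested. The median SE of a difference in that range was 2.09 points in sparse tiles, 1.65 in the middle class and 1.35 in the densest. Taking only the first 4 cytosines of each denser tile gave 42.7% and 40.4% called in the denser classes over all levels, near the 43.9% and 38.3% from all their cytosines. That check tested 13954 and 1949 tiles instead of 14426 and 1386. It was not split by level, so it cannot speak to the tiles under 20%.

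**Figure D3:**
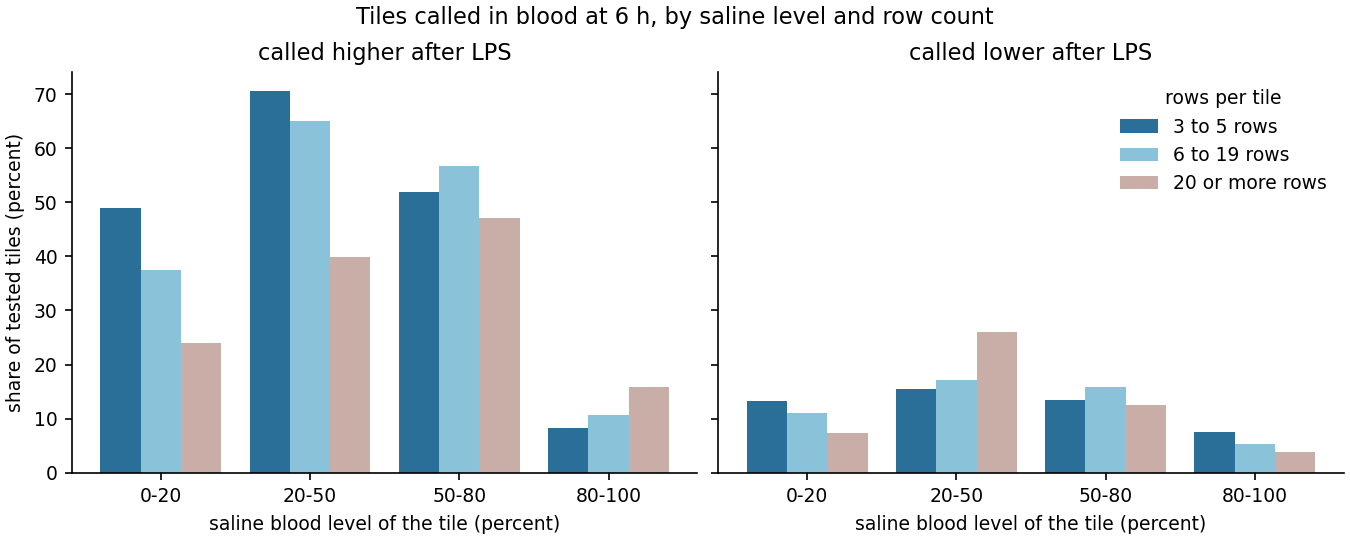
Share of tested tiles (percent, vertical axis) called higher (left) or lower (right) in blood at 6 h after LPS, by the tile's mean level in saline blood (horizontal axis, percent) and by its number of measured cytosines (called rows in the legend). Higher calls peak for sparse tiles between 20 and 50% (70.5%) and are least frequent above 80% (8.27%). The limit on the mean level uses both groups, so the lowest and highest bins depend partly on it.

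Averages over fewer cytosines were noisier. Among tiles between 20 and 50% in saline blood the median SD between the 4 saline libraries was 4.26 points for sparse tiles, 3.29 for tiles of 6 to 19 cytosines and 2.17 for tiles of 20 or more. In LPS blood at 6 h the values were 4.72, 3.97 and 2.73 points.

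Of the tiles in or within 1 kb of a gene, the 6 with the largest increases in blood at 6 h, 1 per gene and without overlap between groups, all lay inside genes. The tile in Slit3, a secreted ligand of Robo receptors in axon guidance, spans chr11:35475701-35475884. Its saline libraries were at 29.4, 27.3, 25.8 and 17.6% and its LPS libraries at 91.5, 82.2, 93.1 and 93.7%. The groups stood far apart, with a difference of 65.1 points (SE 3.72, limma adjusted p = 2.82e-08), and saline hippocampus and cortex were at 42.2 and 53.1%. The tile in Slx4ip, which encodes a partner of the nuclease scaffold SLX4, spans chr2:137068036-137068202 and went from 27.7, 27.3, 31.6 and 35.9% to 96.2, 89.8, 95.9 and 92.2% (62.9 points, SE 3.22, limma adjusted p = 2.26e-08). In Rab44, a gene for a large Rab GTPase, the tile spans only chr17:29134548-29134584. It had 24.8, 28.5, 29.1 and 20.7% in saline blood and 89.1, 84.8, 89.5 and 90.1% after LPS, a difference of 62.6 points (SE 3.16, limma adjusted p = 2.26e-08).

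Some of these tiles were nearly unmethylated in brain. In Nfia, a transcription factor of glial development (chr4:97868837-97868947), saline blood had 22.1, 22.0, 20.9 and 23.5% and LPS blood 82.5, 72.2, 90.0 and 93.7%, while saline hippocampus was at 1.69% and cortex at 3.0%. In Cacnb2, a subunit of voltage-gated calcium channels (chr2:14873871-14873970), saline blood had 26.1, 19.8, 25.4 and 31.9% and LPS blood 93.4, 72.9, 94.4 and 93.4%, with 5.68 and 3.42% in saline hippocampus and cortex. The differences in blood were 62.5 (SE 4.19) and 62.7 points (SE 4.73), with limma adjusted p = 6.55e-08 and 1.47e-07. Phldb1, which encodes a pleckstrin homology-like domain protein (chr9:44724341-44724441), had 34.0, 27.5, 30.3 and 19% against 91.0, 79.4, 97.6 and 94.5%. Saline blood thus lay between brain and LPS blood at Nfia and Cacnb2.

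The 6 largest decreases chosen in the same way ended near 0. The tile in Mrvi1, the gene of an inositol trisphosphate receptor-associated substrate of cGMP kinase, spans chr7:110956822-110956923. Its saline libraries had 67.0, 64.4, 63.6 and 65.7% and its LPS libraries 4.23, 9.12, 4.46 and 3.42%, a difference of -59.9 points (SE 2.41, limma adjusted p = 2.1e-08). Saline hippocampus and cortex were at 85.2 and 84.8%, above both blood groups. The tile in Art3, of the ADP-ribosyltransferase family (chr5:92375159-92375298), had 69.5, 69.8, 69.0 and 66.5% in saline blood and 4.17, 16.9, 12.0 and 3.1% after LPS. Septin9, a cytoskeletal GTPase (chr11:117242299-117242439), had 70.3, 68.4, 62.9 and 70.9% against 7.88, 17.2, 11.8 and 6.2%. Parvg, whose promoter window is printed above, Lrrc27 and Rnf144b, an E3 ubiquitin ligase gene, completed the list with -58.2, -56.7 and -56.6 points.

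All 12 tiles were called in the same direction at 12 and 24 h. None of the 12 was called in hippocampus at 6 h, where no tile of any kind was called and Nfia was too low to be tested. In each of them the LPS 6 h library nearest to saline was replicate 2, which was also nearest in 4528 of the 7816 called tiles (57.9%, the other libraries 10.9, 14 and 17.1%) and had the lowest mean level of its group. Its part in the sizes was not tested beyond the fits without it.

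**Figure D4:**
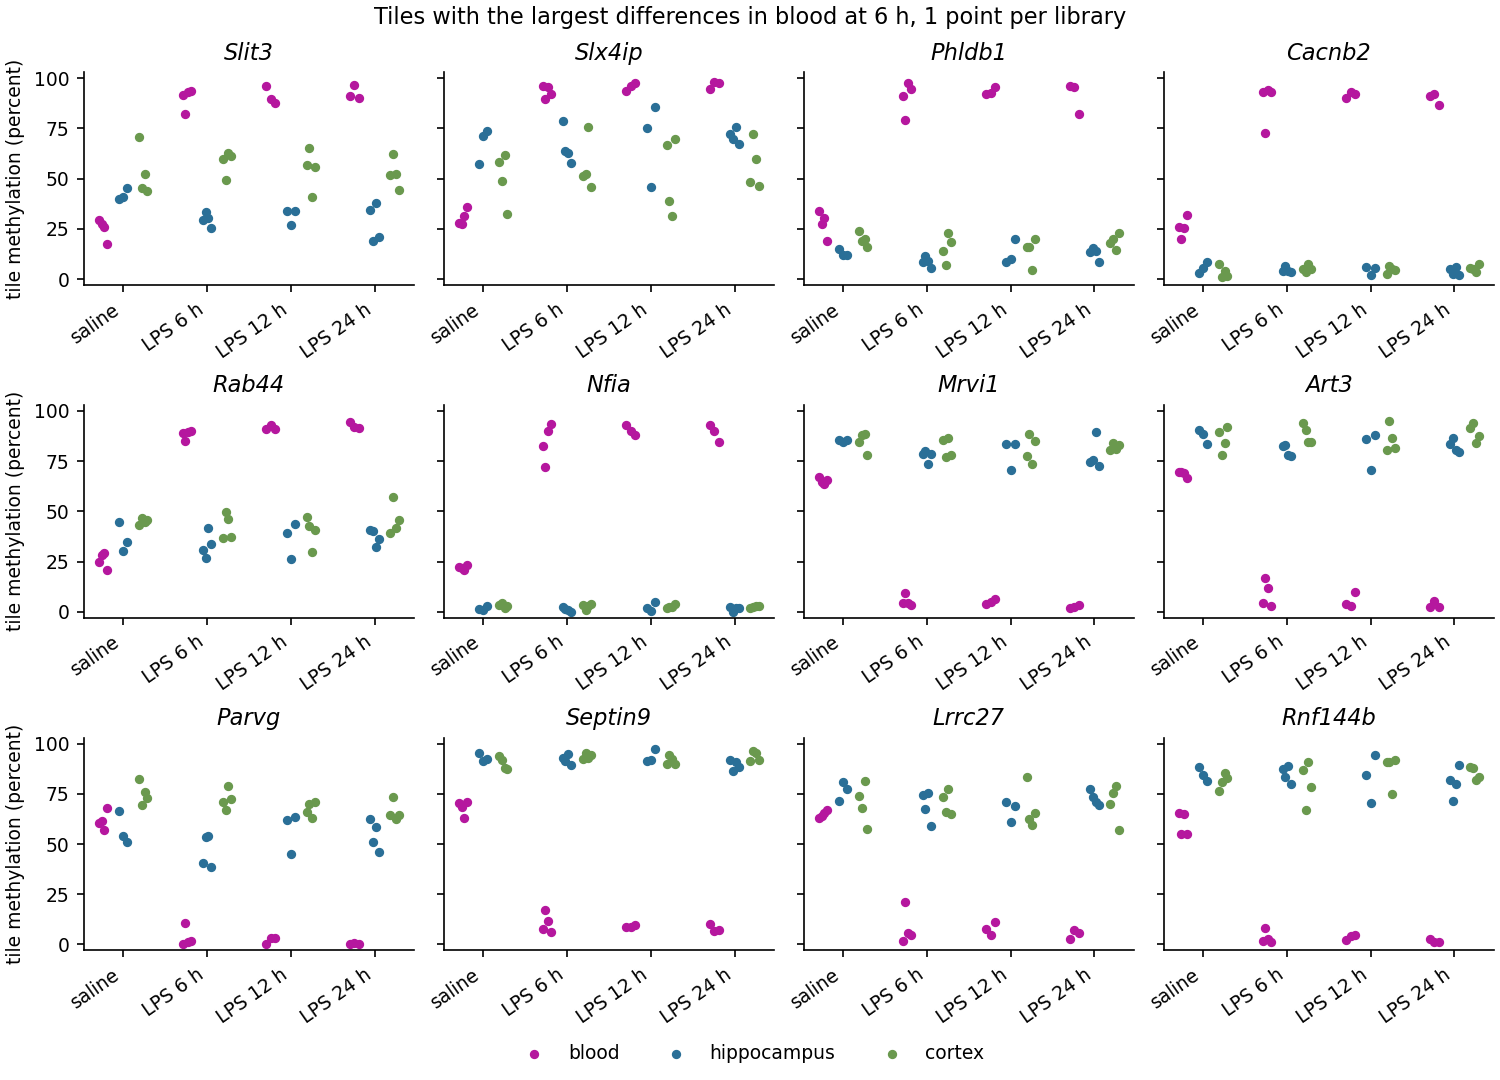
Methylation (percent, vertical axis) of the CpG-sparse tiles in genes with the 6 largest increases and 6 largest decreases in blood at 6 h, 1 panel per tile named by its gene; points are libraries, in columns for saline and LPS 6, 12 and 24 h and coloured by tissue. Blood changes sides between saline and LPS in every panel while hippocampus and cortex show no such switch.

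The promoter windows printed above gave the same contrast at single CpGs. In Parvg, which encodes the leukocyte actin-binding adaptor gamma-parvin, the tile (chr15:84324754-84324901) had 60.5, 61.4, 57.0 and 67.8% in saline blood and 0.0, 10.8, 1.41 and 1.7% after LPS at 6 h (-58.2 points, SE 3.05, limma adjusted p = 2.48e-08). Its CpGs at bases 285 and 298 of the window averaged 65.5 and 57.7% in saline blood and 4.22 and 2.32% after LPS. At Tmem178b the libraries were at 62.3, 65.9, 63.0 and 59.3% and then 1.28, 16.3, 3.23 and 3.46%, and the CpGs at bases 158, 165 and 247 averaged 61.1, 62.6 and 64.3% before and 8.56, 5.69 and 3.98% after. Each measured CpG of both windows moved by a similar amount.

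Glrp1 had 55.8, 52.2, 51.4 and 55.2% in saline blood and 3.92, 13.5, 6.67 and 4.11% after LPS (-46.6 points, SE 2.6, limma adjusted p = 2.62e-08), with 81.8% in saline hippocampus. Its 4 cytosines averaged between 40 and 60.7% in saline blood and between 3.72 and 9.35% after LPS.

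Anxa8, the gene of a calcium-dependent phospholipid-binding annexin, moved upward, from 8.82, 27.5, 36.6 and 31.3% to 82.5, 80.6, 77.4 and 79.1% (53.8 points, SE 4.91, limma adjusted p = 7.17e-07). Within its window the measured cytosine at base 131 went from 18.6 to 61.9%, less far than the one at base 69, which went from 26 to 90.5%. Fam47e had 43.5, 27.6, 27.7 and 40.6% before and 88.1, 80.4, 83.7 and 86.3% after (49.7 points, SE 4.08, limma adjusted p = 2.85e-07). Unc13c, a priming factor of synaptic vesicles, had 20.4, 19.2, 20.5 and 14.7% before and 64.4, 54.4, 65.6 and 60.4% after (42.5 points, SE 3.06, limma adjusted p = 1.03e-07), and was at 3.57 and 2.74% in saline hippocampus and cortex.

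Neutrophil genes were less methylated after LPS in every sparse tile they held. The list of 16 neutrophil genes had 9 sparse tiles in 7 genes, and all 9 were called lower in blood at 6 h (median -25.6 points, against 1.34 over all tested sparse tiles), as they were after centring (median -28.7) and at 12 and 24 h (medians -26 and -27.2). In Csf3r, the receptor of granulocyte colony-stimulating factor, the tile had 36.7, 35.3, 36.9 and 35.1% in saline blood and 2.58, 5.15, 5.01 and 0.833% after LPS (-32.6 points, SE 1.74, limma adjusted p = 2.5e-08). Ctsg, for the granule protease cathepsin G, went from 68.4, 74.8, 75.6 and 73.4% to 40.3, 39.8, 37.2 and 38.4% (-34.1 points, SE 3.0, limma adjusted p = 5.08e-07). Prtn3, for proteinase 3, had 41.6% ± 4.72 (SD, n = 4) and then 12.6% ± 5.53 (SD, n = 4).

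The granule proteins and proteases completed this list. Mmp8, the neutrophil collagenase gene, went from 67.8 to 38.8%, and the tiles of the gelatinase gene Mmp9 changed by -12.4, -7.36 and -25.6 points. Camp, the cathelicidin gene, changed by -14.6 points and Lcn2, the iron-siderophore binding lipocalin gene, by -8.46 points. None of the 9 tiles was called in hippocampus or cortex after LPS, where no tile of any kind was called. Saline cortex was called higher than saline blood in 8 of the 9, where 25.2% of all tiles were, and saline hippocampus was called higher in 5 and lower in 2, where 24.2 and 25.6% were.

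Lymphocyte genes had calls in both directions. Of 18 tested tiles of B cell genes 9 were called higher and 0 lower (median 6.31 points; 7 and 1 after centring). Ebf1, which specifies the B lineage, had 20.7, 15.4, 18.8 and 12.5% in saline blood and 60.3, 57.6, 66.4 and 60.6% after LPS at a tile starting at chr11:44716000 (44.4 points, limma adjusted p = 5.75e-08). Pax5, its partner in B cell identity, went from 31.1 to 69.4% at one tile (38.3 points, limma adjusted p = 1.25e-06), while 3 of its 7 tiles were not called. T cell genes were mixed, with 7 tiles higher and 3 lower of 18 (median 0.112 points; 5 and 6 after centring). Bcl11b, a regulator of T cell commitment, had 4 tiles called higher, 1 lower and 2 not called of 7, the largest difference being from 31.8 to 79.3%. The regulator Runx3 went from 25.3 to 79.2% and the kinase gene Zap70 from 44.9 to 86.8%, while Gata3, the T helper transcription factor, went from 39.8 to 5.31% at one tile (-34.5 points, limma adjusted p = 3.17e-08).

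Several tiles of a gene did not have to move together. Among 31 tested tiles of genes for leukocyte signalling and regulation, 13 were higher and 5 lower (median 4.44 points; 10 and 8 after centring). Runx1, the core binding factor of blood stem cells, had 5 tiles called higher and 2 lower of 8. Its tile at chr16:92694654-92694855 went from 27.8 to 86.2% (58.4 points, limma adjusted p = 9.47e-08) and its tile at chr16:92801798-92801902 from 51.6 to 4.34% (-47.2 points, limma adjusted p = 6.05e-08). Both tiles lie in the same gene.

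Genes of the LPS response and of DNA methylation had few sparse tiles. For Toll-like receptor and NF-kB genes 4 of 9 tiles were higher and 0 lower, before and after centring (median 4.48 points). Nfkb1, which encodes the p105 precursor of NF-kB, had 34.6, 43.2, 35.8 and 40.4% in saline blood and 90.8, 77.6, 88.0 and 91.4% after LPS at chr3:135623483-135623645 (48.4 points, SE 3.72, limma adjusted p = 1.66e-07). Tnfaip3, for the NF-kB inhibitor A20, went from 69.5 to 92.0%. Of 7 tiles of DNA methylation genes 5 were higher and 0 lower (median 11.8 points; 4 and 0 after centring), led by Tet2, an enzyme that oxidises methylcytosine, which went from 44.6 to 85.3% (40.7 points, limma adjusted p = 2.09e-07). The maintenance methyltransferase gene Dnmt1 went from 86.6 to 93.3% at one tile and had 92.4% in both groups at another.

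Among genes tied to the exposure, cholinergic genes had 7 of 13 tiles higher and 0 lower (median 9.15 points; 6 and 1 after centring). Chat, the acetylcholine-synthesising enzyme, went from 34.4 to 60.7% (26.3 points, limma adjusted p = 8.55e-06). Glucocorticoid response genes had 2 of 5 higher and 0 lower, also after centring (median 0.646 points, and -2.41 after centring): Klf9 went from 51.9 to 82.3% and Zbtb16 from 45.1 to 78.0%. Interferon genes had 2 of 5 higher and 1 lower, and 0 and 2 after centring; Oas2, an antiviral oligoadenylate synthetase gene, went from 49.8 to 23.6%.

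Lists of cell types not found in blood gave calls as well. Of 65 tested tiles of synaptic and neuronal genes 20 were higher and 4 lower (median 2.09 points), and 15 and 11 after centring. Grin2b, an NMDA receptor subunit gene, went from 44.6 to 86.9% at one tile. Astrocyte genes had 1 of 6 higher and 0 lower, oligodendrocyte genes 5 of 10 higher and 4 lower, and endothelial and pericyte genes 5 of 11 higher and 1 lower (3 and 1 after centring). Each list can be read only against the 29.6% of all tiles called higher and 11.8% called lower, and the lists were chosen with results of these data in view. Counts after centring have another background, 17467 higher and 18959 lower of all 74713 tiles after centring.

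**Figure D5:**
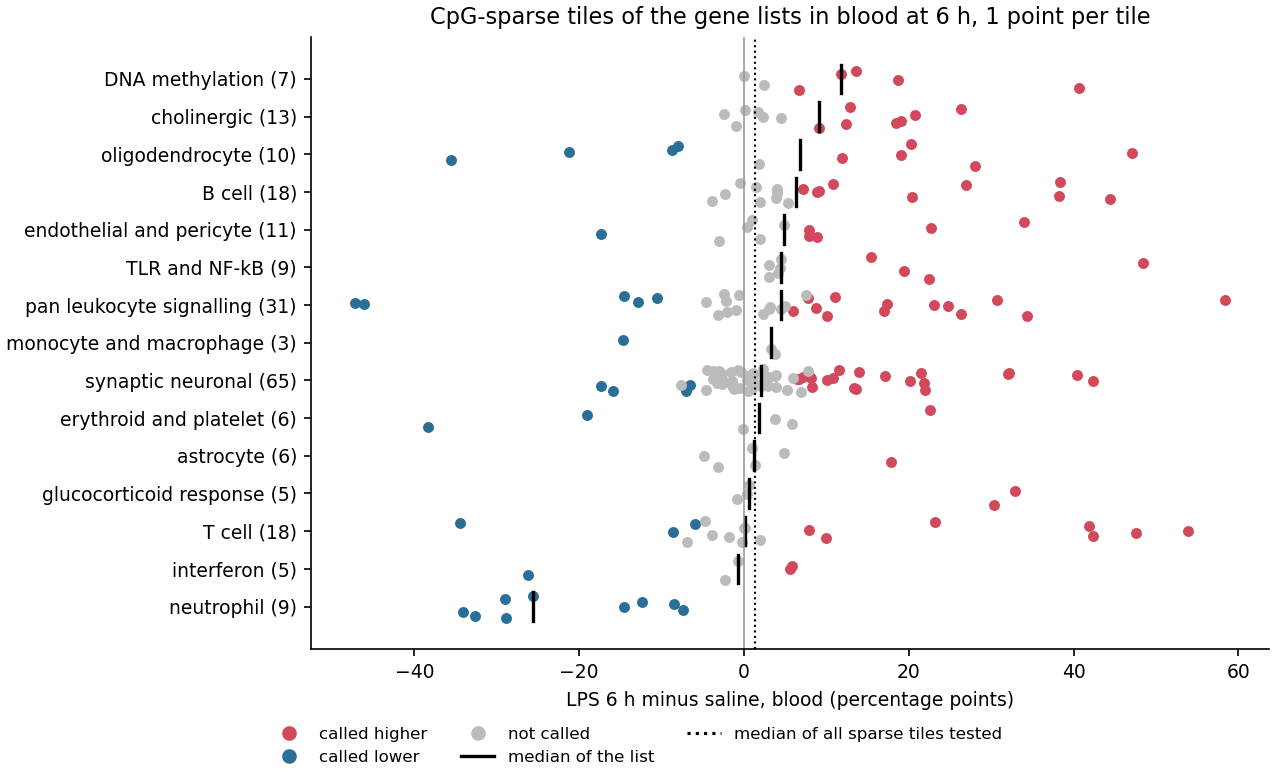
Difference between LPS at 6 h and saline in blood (percentage points, horizontal axis) for each tested CpG-sparse tile of the gene lists, 1 row per list with its number of tested tiles; colours mark the call, short bars the list median and the dotted line the median of all tested sparse tiles (1.34 points). Lists with fewer than 3 tested tiles are not drawn, and all 9 neutrophil tiles lie below 0.

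The share of calls in blood also differed by position. At 6 h 47.7% of the tested sparse tiles inside genes were called, 44.5% of those outside but within 1 kb, and 35.3% of those farther away. Within 1500 bp of a listed start site the share was 56.6%, and it fell to 36.7% beyond 50 kb. Sparse tiles next to a tile with 20 or more cytosines were called in 57.6% of cases and those more than 50 tiles away in 35.7%. These bins differ in saline level, which goes along with the share of calls, and the parts of level and place were not tested against each other.

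In hippocampus and cortex no sparse tile was called after LPS at any time by limma, beside 0.0% of all tiles. The number with an unadjusted p under 0.05 was 3171 of 17372 in hippocampus at 6 h, 587 of 17411 at 12 h and 1697 of 17332 at 24 h, where 18, 3.65 and 9.2% of all tiles had one. In hippocampus at 6 h 10 of 17372 sparse tiles were called lower when the prior variance was fitted by class, beside 87 of all 63754 tiles. When only cytosines present in all tables were averaged, 17 of 16751 sparse tiles were called lower, beside 41 of all 40312. The median difference of the tested tiles was -2.71, -1.33 and -1.66 points (-2.69, -1.19 and -1.5 over all tiles), and the one at 12 h became 0.336 points without LPS 12 h replicate 2. In cortex 502 of 17810, 451 of 17822 and 475 of 17859 tiles had an unadjusted p under 0.05, where 2.98, 2.98 and 3.25% of all tiles did, and the medians were -0.0291, -0.408 and 0.472 points.

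Tiles called in blood had small or negative median differences in the brain. The 5819 tiles higher in blood at 6 h had a median difference of -4.41 points in hippocampus and -0.105 points in cortex, and the 1997 tiles lower in blood had -4.2 and 0.249 points. The LPS difference at 6 h in hippocampus minus that in blood was called lower in 6082 and higher in 1144 of 18747 sparse tiles (39.8% of all tiles called; 33.4% lower and 6.33% higher), and lower in 4261 and higher in 4370 after centring. At Cep250, a centrosomal gene with a tile at chr2:155979355-155979537, saline blood had 53.0, 69.2, 59.4 and 60% and LPS blood 0.0, 14.9, 3.65 and 0.813%, whereas hippocampus had 71.7, 55.3 and 58.5% and then 65.8, 66.3, 57.9 and 66.3%. The interaction was 57.8 points (SE 6.18, limma adjusted p = 4.68e-07).

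The other interactions had the same lean. Hippocampus minus blood was lower in 5163 and higher in 1045 of 18547 tiles at 12 h and in 5513 and 1236 of 18523 at 24 h. Over all tiles 33.5 and 37.2% were called (27.5 and 30.1% lower, 5.98 and 7.07% higher). Cortex minus blood was lower in 4254, 4993 and 4324 tiles and higher in 1492, 1245 and 1524 at 6, 12 and 24 h, beside 31.1, 33.6 and 31.8% of all tiles called (22.7, 26.5 and 22.9% lower, 8.42, 7.13 and 8.98% higher). The share of calls that were lower was between 73.9 and 84.2% over the 6 interactions, and between 49.4 and 58.6% after centring. For the interactions the centred counts over all tiles are not given here. Slco3a1, an organic anion transporter gene with a tile at chr7:74376832-74376951, was named for the interaction at 12 h. LPS blood at 12 h was at 87.9% ± 4.76 (SD, n = 3) and saline blood at 19.5% ± 6.57 (SD, n = 4), whereas LPS hippocampus at 12 h was at 8.54% ± 5.42 (SD, n = 3) and saline hippocampus at 15.4% ± 1.49 (SD, n = 3). The interaction was -75.3 points (SE 5.3, limma adjusted p = 8.13e-08).

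Saline tissues differed from each other in many sparse tiles. Hippocampus was higher than blood in 4625 and lower in 4336 of 18361 tested tiles, beside 49.8% of all tiles called (24.2% higher and 25.6% lower), and cortex was higher in 4792 and lower in 4135, beside 49.7% (25.2% higher and 24.6% lower). With LPS 6 h libraries in place of the saline libraries, an alternative chosen after seeing the data, the counts of higher and lower tiles were 3219 and 7011 of 18750 for hippocampus and 3745 and 5723 for cortex. Over all tiles 56.3% were then called for hippocampus (16.0% higher and 40.3% lower) and 52.0% for cortex (18.6% higher and 33.3% lower). Both brain regions are compared with the same blood libraries. Hoxb3, a homeobox gene (chr11:96339911-96339953), was at 75, 79.2, 70.4 and 74.0% in saline blood, 5.2, 2.77 and 7.01% in hippocampus and 3.4, 0.673, 4.46 and 2.48% in cortex.

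At several tiles both blood groups were far from brain. Ebf3, a transcription factor of neuronal differentiation (chr7:137207013-137207058), had 94.6, 89.9, 90.9 and 95% in saline blood, 96.2, 93.3, 96.8 and 92.0% in LPS blood at 6 h and 18.5, 17.9 and 22.1% in saline hippocampus (-73.1 points against saline blood, SE 3.71, limma adjusted p = 4.66e-10). Ptpn3, a tyrosine phosphatase gene (chr4:57206203-57206284), had 90.2% ± 3.32 (SD, n = 4) in saline blood, 90.1% ± 1.18 (SD, n = 4) in LPS blood and 15.3% ± 2.65 (SD, n = 3) in hippocampus. In the other direction Pebp4, of the phosphatidylethanolamine-binding family (chr14:69979121-69979274), had 12.8% ± 4.14 (SD, n = 4) in saline blood, 2.35% ± 2.41 (SD, n = 4) in LPS blood and 85.3% ± 3.0 (SD, n = 3) in hippocampus. Tiam1, a Rac activator (chr16:89974029-89974126), had 26.3, 28.8, 24.3 and 22.0% in saline blood and 92.7, 96.2, 89.6 and 92.2% in cortex. The middle of its tile was 199 bp from a listed start site.

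The brain regions were closer to each other than to blood. Cortex was higher than hippocampus in 2048 and lower in 985 sparse tiles, beside 17.9% of all tiles called (11.6% higher and 6.27% lower). With the LPS 6 h libraries the counts were 3895 higher and 531 lower of 18750, beside 24.7% of all tiles called (21.3% higher and 3.47% lower). At Grk3, a kinase gene for activated G protein-coupled receptors (chr5:112971028-112971061), saline hippocampus had 25.4, 34.7 and 34.0% and saline cortex 89, 74.0, 82.1 and 90.4% (52.5 points, SE 3.82, limma adjusted p = 3.74e-07), close to the 93.3% of saline blood. Sin3a, a corepressor scaffold gene (chr9:57125185-57125348), ran the other way with 91.1, 91.0 and 92.9% in hippocampus and 57.4, 46.1, 64.4 and 46.0% in cortex (-38.2 points, SE 3.85, limma adjusted p = 6.19e-06).

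Smchd1, a chromatin protein gene of X inactivation (chr17:71434880-71434974), combined a regional difference with a change in blood. Its tile was at 55.4, 47.2 and 47.1% in saline hippocampus and 92.8, 86.3, 90.2 and 94.3% in saline cortex (41.0 points, SE 3.47, limma adjusted p = 1.35e-06). Saline blood had 52.8, 44.7, 47.7 and 52.6% and LPS blood at 6 h 95.8, 88.3, 95.2 and 94.3% (44.0 points, SE 3.06, limma adjusted p = 8.23e-08). Saline blood matched hippocampus there and LPS blood matched cortex.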

How the data were processed

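The authors deposited 9 tables of percent methylation, 1 per tissue and LPS time, each with the saline libraries of the tissue beside the LPS libraries and 1 row per cytosine and strand. The saline values of a tissue are identical in its tables. The submitters' processing notes name methylKit, Bismark, Bowtie2, SAMtools, Trim Galore and FastQC with the build GRCm38 (mm10). For versions, settings and the coverage minimum the sources used here give nothing; a minimum would remove cytosines of thinly read fragments. Libraries were made from 100 ng DNA with the Ovation RRBS kit, per the labels' protocols. Tables held 1083654 to 1380165 cytosines, of which 5.80 to 7.36% lay in sparse tiles. Within a table no pair of libraries shared more than 1.88% of its tile values, so none was a copy of another in the same table. Pairs of libraries from different tables were not compared.

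Rows were averaged per 1-kb autosomal tile. Tiles with at least 3 rows in a table and a mean of 5 to 95% were fitted with limma 3.58.1 in R 4.3.3 (lmFit, then eBayes with a variance trend) on percentages, over all tiles of a table, with Benjamini-Hochberg adjustment. A call needed an adjusted p under 0.05 and 5 points. LPS was compared with saline within a tissue and time, and tissues, interactions and LPS times across the tables. The fit was tested on simulated data. The labels do not say whether replicate numbers pair samples, and the libraries were not treated as paired outside the replicate block. Same-numbered saline and LPS libraries of a tissue had deviations correlated at -0.00662 to 0.0773 in blood and hippocampus and at -0.169 to 0.196 in cortex. Correlations between tissues were not part of this check.

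Genes are protein-coding spans of RefSeq GRCm38.p6 or 1 kb on either side. The start-site table is incomplete, with chromosome 18 start sites not used here, so a distance is to the nearest listed site. It was measured from the middle of the tile. For each LPS comparison the 6 largest called differences in each direction without overlap between groups, 1 tile per gene, could be named; for tissue, interaction and time comparisons the 3 largest; for each gene list the 2 largest in blood at 6 h, with other tiles of those lists named for the genes' roles after their values were seen. Members and lists were chosen with earlier results of these data known. Alternatives were centring, no limit on the level, prior variance by class, cytosines shared by all tables, the first 4 cytosines of denser tiles, medians, a replicate block and leaving out each library. Other tools were Python 3.11.15, numpy 2.4.6, pandas 2.3.3, scipy 1.17.1, arrow 21.0.0 and matplotlib 3.10.9.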

Additional observations from a re-analysis of the deposited data

Results flagged for a closer look

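Cortex LPS 12 h replicate 3 had a mean level of 66.59% over the sparse tiles, apart from the other libraries of its group (a gap beyond Dixon's 95% limit). Among 8 groups of 4 libraries checked for the mean level this was the only such library, and chance gives about 1 in 20. Without any single library the difference in cortex at 12 h ran from -1.07 to 0.672 points.

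Blood LPS 6 h replicate 2 stood apart in the same way at the tile in Cacnb2, with 72.9%, and at the tile in Parvg, with 10.8%, in each case on the side of saline. These came from 24 checks, the saline and LPS 6 h blood groups of the 12 tiles with the largest differences, where chance gives about 1 in 20. Both tiles were still called without that library.

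The LPS difference of a brain region minus that of blood was tested directly and passed the threshold in many sparse tiles. For hippocampus minus blood at 6 h 1144 tiles were called higher and 6082 lower. The 12 h counts were 1045 higher and 5163 lower, and the 24 h counts 1236 higher and 5513 lower. For cortex minus blood the higher calls numbered 1492, 1245 and 1524 from the earliest to the latest time and the lower calls 4254, 4993 and 4324. Over all tiles the higher shares were 6.33, 5.98 and 7.07% for hippocampus and 8.42, 7.13 and 8.98% for cortex, and the lower shares 33.4, 27.5 and 30.1% for hippocampus and 22.7, 26.5 and 22.9% for cortex, so the counts of sparse tiles were near that background. After centring each library the hippocampus counts at 6 h were 4370 higher and 4261 lower, without a centred count over all tiles beside them. All of these rest on the saline blood libraries that lay between brain and LPS blood at most of the tiles where those differed by more than 20 points, whose part in the counts was not tested.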

How the results depend on the processing

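Depth is unknown, only 3 or 4 libraries stand in a group, and every saline comparison of a tissue shares its saline libraries. Centring each library on its own mean changed the lower calls in blood to 4702, 4157 and 4283 at 6, 12 and 24 h. Among all tiles they became 18959 of 74713, 14571 of 61847 and 17173 of 71782. The higher interaction calls became 4370, 2698 and 3436 for hippocampus minus blood and 3196, 2999 and 2956 for cortex minus blood. Centring itself removes the mean shift of a library. Of the 7816 tiles called in blood at 6 h, 85.6% were called in the same direction after centring. In hippocampus at 6 h the lower calls went from 0 to 10 with prior variance by class and to 17 with cytosines in all tables. Among all tiles those fits called 87 of 63754 and 41 of 40312 lower, and the cause was not tested. LPS 6 h libraries in place of saline gave 7011 lower calls for hippocampus minus blood, and 3895 higher and 531 lower for cortex minus hippocampus; the cause was not tested.

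Leaving out single libraries gave 0 to 1 lower calls in hippocampus at 6 h (1 without saline replicate 2), 0 to 10 higher calls in hippocampus at 12 h (10 without LPS 12 h replicate 2) and 0 to 1 lower calls for blood LPS 24 h minus 6 h (1 without LPS 24 h replicate 2). In blood at 6 h it gave 5326 to 6166 higher and 1784 to 2100 lower calls, with a mean-level difference of 3.87 to 4.92 points. The mean-level difference of hippocampus at 12 h ran from -2.69 to 0.409 points, the last without LPS 12 h replicate 2, and in cortex it changed sign at 6 h (-0.959 to 0.573) and 12 h (-1.07 to 0.672). The replicate block kept all 30 counts of higher or lower calls within 1.5 times. The counts for LPS in the brain regions and for LPS 24 h minus 6 h were 0 without the block, so a ratio says nothing there. In blood at 6 h 7618 of the 7816 tiles (97.5%) were called in the same direction under the replicate block. Same-numbered libraries correlated best with their own number in 1 of 4 blood pairs at 6 h and 0 of 4 cortex pairs at 6 h. In blood it was 1 of 3 at 12 h and 2 of 3 at 24 h, and in cortex 2 of 4 at both later times. In hippocampus it was 1, 2 and 1 of 3 at 6, 12 and 24 h. Among single named tiles 18 results of 2166 fell short of a call and 9 gained one when a library was left out.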

Other observations

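Some genes held several sparse tiles. In blood at 6 h 1918 of 5186 genes with a tested sparse tile had at least 2 of them, and 825 had at least 2 called: 452 with all calls higher, 42 with all lower and 331 with both directions. The genes named next were picked from those with the most called tiles, which favours genes with many tiles. Over all tiles 29.6% were called higher and 11.8% lower. Wwox, a tumour suppressor gene at a fragile site, had 11 tiles higher and 1 lower of 20. Gse1 had 8 higher and 4 lower of 17, and Zfhx3, a zinc finger homeobox gene, 6 and 4 of 19. Cdh13, a cadherin gene, leaned the other way with 2 higher and 5 lower of 20.

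Neighbouring called tiles shared a direction most often at short range. Of 142 pairs of called sparse tiles that adjoined each other 88.7% had the same direction, against 66.8% of pairs 2 to 5 tiles apart and 61.4% of pairs more than 100 tiles apart. All pairs come from the same libraries, so these shares are a description.

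Gene families gave further counts in blood at 6 h. Collagens had 22 tiles higher and 4 lower of 78, calcium channels 18 and 3 of 52, and ADAM proteases 6 and 0 of 31. Solute carriers had 74 higher and 19 lower of 217. All are to be read against 29.6% higher and 11.8% lower among all tiles, and none was tested as a set.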
